A study of Mus musculus with 24 samples.

Results

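The Exc-CA1-Galntl6 cluster is 1 of 3 groups of excitatory CA1 neurons that the authors separated by clustering nuclei of the mouse ventral hippocampus, and its name carries its marker Galntl6. Its members were taken by that label, which held 3138 of 30880 nuclei profiled by single-nucleus RNA sequencing (snRNA-seq) and 4644 of 27206 nuclei profiled by single-nucleus ATAC sequencing (snATAC-seq), an assay of open chromatin. The nuclei came from adult males of 2 inbred strains, C57BL/6J (B6), the strain of the mouse reference genome, and DBA/2J (D2, labelled DBA), aged 10 to 16 weeks. The animals of either strain carried no engineered allele and received no treatment that the labels name. Each strain had 2 libraries per assay, and each library pooled about 2 animals. For snRNA-seq, NeuN, which marks the nuclei of neurons, was used to sort and mix neuronal and other nuclei, and for snATAC-seq no such sort was made. The values below are counts that the authors summed over the nuclei of a type in a library, given as CPM, the counts of a column scaled to the same total in every column, over symbols counted in both strains or over all peaks. A lower CPM therefore cannot be separated from a higher total of other transcripts in the same nuclei.

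CA1 pyramidal neurons receive the Schaffer collaterals of CA3 and carry the main output of the hippocampus to the subiculum, the entorhinal cortex and more distant targets. They use glutamate, and they differ in their transcripts between the dorsal and ventral ends of the hippocampus and between the superficial and deep sides of the pyramidal layer. Galntl6 belongs to the family of polypeptide N-acetylgalactosaminyltransferases, Golgi enzymes that attach the first sugar of mucin-type O-glycans to serine and threonine. Fibcd1 is a membrane receptor that binds acetylated groups, and Mpped1 is a metallophosphoesterase-domain protein found in forebrain neurons. The other CA1 groups, named after Fras1 and Camk2d, served as the nearest comparison.

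The 4 snRNA-seq libraries of the cluster held between 5801303 and 8129068 counts and the 4 snATAC-seq libraries between 16766507 and 20223271. Of 33902 listed symbols, 24634 had counts in both strains and entered the comparisons, 8169 had counts in D2 alone and 971 in B6 alone. Over 6957 symbols the correlation of log2 CPM was 0.993 between libraries of a strain and between 0.933 and 0.940 across strains. Over 48766 peaks it was 0.980 (B6) and 0.981 (D2) within a strain and at most 0.934 across strains. Features are not independent replicates, so these correlations are given as descriptions. By these correlations no library of the cluster stood apart from its partner. The Exc-CA1-Camk2d columns of B6 were less alike, with Galntl6 at 882 CPM in library 2 and 535 CPM in library 3. The B6 snATAC-seq libraries of the cluster differed in depth, at 12791.4 and 21495.5 counts per nucleus over 1424 and 780 nuclei. The libraries are called 2 and 3 here, as in the columns of the tables.

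In B6 the cluster made up 11.8% and 9.26% of all snRNA-seq nuclei, and in D2 it made up 9.98% and 9.30%, which gave it rank 3 among 17 cell types. Among the 6060 CA1 nuclei its share was 57.8% (exact binomial 95% interval 55.4 to 60.1) and 52.5% (49.9 to 55.2) in B6. In D2 it was 47.8% (45.4 to 50.3) and 47.6% (44.8 to 50.5), below both B6 libraries. The snATAC-seq nuclei gave 60.8% and 50.5% of 8882 CA1 nuclei in B6 and 47.9% and 49.9% in D2. The D2 to B6 ratio of mean shares of CA1 nuclei was thus 0.866 in snRNA-seq and 0.879 in snATAC-seq. An exact two-sided permutation test gave p = 0.33 in each assay, the smallest value that 2 libraries against 2 allow. Over all nuclei the ratios were 0.917 and 0.923, and there the strains overlapped. The intervals cover counting error only, and the NeuN sort can set shares of all snRNA-seq nuclei.

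The cluster's name held against its transcripts, although of the 3 markers Galntl6 alone lay above every library of the other CA1 groups. Galntl6 was counted at 4261 and 4131 CPM in B6 and at 3868 and 4230 CPM in D2. All 4 values lay above every other library of the 13 cell types used, where entorhinal neurons (Exc-ENT) came next at 1889 ± 125 CPM (SD, n = 4 libraries). Then followed CA3 (852 ± 33.7 CPM), Exc-CA1-Camk2d (779 ± 173 CPM) and Exc-CA1-Fras1 (434 ± 115 CPM), where each overlapped with the next, and astrocytes were lowest at 56.1 CPM. Fibcd1 stood at 76.7, 66.5, 65.7 and 58.7 CPM in the cluster. In Exc-CA1-Camk2d it averaged 45.8 CPM, and B6 library 2 of that type, at 78.8 CPM, exceeded all 4 values of the cluster. In Exc-CA1-Fras1 it was at 7.56 ± 3.15 CPM. Mpped1 was at 174 and 172 CPM in B6 and at 219 and 194 CPM in D2. It did not set the cluster apart, because Exc-CA1-Fras1 (215 ± 26.6 CPM) and Exc-CA1-Camk2d (210 ± 22.6 CPM) overlapped with it. It did separate the CA1 groups from CA3 (4.84 CPM) and dentate granule neurons (5.66 CPM). These levels are a description, since the authors clustered nuclei on the same transcripts.

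**Figure D1:**
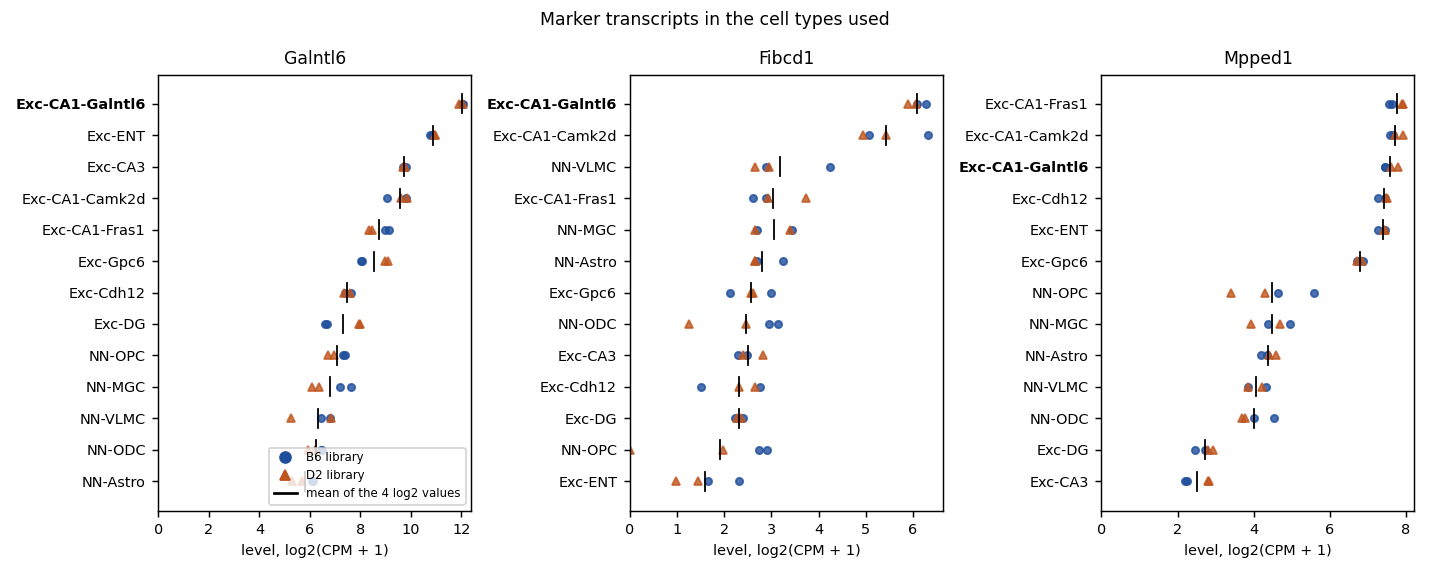
Level of Galntl6, Fibcd1 and Mpped1 in 13 cell types, on a horizontal axis of log2(CPM + 1). Circles are B6 libraries, triangles are D2 libraries and bars are means of the 4 values. Galntl6 was highest in Exc-CA1-Galntl6 (mean 4123 CPM), Fibcd1 overlapped with Exc-CA1-Camk2d, and Mpped1 was shared by the CA1 groups.

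Galntl6 lies on the minus strand at chr8:57774052-58912640 (mm10). That span runs to the most upstream annotated start, and RefSeq's promoter table uses another start of Galntl6 that lies inside it. The 250 bases before this inner start, chr8:58911628-58911877 in GRCm38.p6, are shown because an accessible peak, chr8:58911526-58913644, covers them along with both starts. They are written on the gene's strand. Capitals mark CAGATG, an E-box form bound by neuronal basic helix-loop-helix factors, searched on both strands as CAGATG or CATCTG and present in 14.4% of 32851 promoter windows of this length.

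Galntl6 promoter: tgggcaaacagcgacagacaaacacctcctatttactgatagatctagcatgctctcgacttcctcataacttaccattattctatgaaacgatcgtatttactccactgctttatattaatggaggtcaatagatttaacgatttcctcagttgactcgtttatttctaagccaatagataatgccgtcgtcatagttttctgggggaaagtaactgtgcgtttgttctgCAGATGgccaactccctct

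The peak over these starts was at 26.8 and 28.1 CPM in B6 and at 25.0 and 29.2 CPM in D2. In Exc-CA1-Fras1 it averaged 18.9 CPM and in Exc-CA1-Camk2d 20.8 CPM, and CA3 had 24.4 CPM. This region was thus accessible in several excitatory types, with a far smaller difference between the CA1 groups than its transcript showed. Peaks also lay at other annotated starts inside the gene. That at chr8:57842561-57843847 was at 15.8 CPM, against 8.29 CPM in Exc-CA1-Fras1 and 12.9 CPM in Exc-CA1-Camk2d. That at chr8:57962131-57963905 was at 14.6 CPM against 10.8 and 10 CPM, and that at chr8:58700338-58700703 was at 0.67 CPM. A larger difference within the gene lay at an intronic peak, chr8:57854572-57855674. It was at 7.47 and 8.53 CPM in B6 and 7.81 and 9.25 CPM in D2, against 1.14 CPM in Exc-CA1-Fras1, 3.10 CPM in Exc-CA1-Camk2d and 1.71 CPM in CA3. It missed the 2-fold rule described below, since its smallest log2 ratio to Exc-CA1-Camk2d was 0.65. The 300 bases at its centre, chr8:57854974-57855273 on the plus strand, held no match to this motif or to the 3 others searched, which are given below.

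Galntl6 intronic peak centre: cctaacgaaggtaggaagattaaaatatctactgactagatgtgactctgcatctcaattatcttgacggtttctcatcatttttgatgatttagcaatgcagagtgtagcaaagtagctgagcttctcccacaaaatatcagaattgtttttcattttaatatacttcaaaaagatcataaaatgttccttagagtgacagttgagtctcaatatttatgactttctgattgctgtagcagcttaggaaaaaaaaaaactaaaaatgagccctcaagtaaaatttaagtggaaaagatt

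Markers of hippocampal fields were also read as sums. The 6 CA3 markers summed to 295 CPM here and 1817 CPM in CA3 neurons. The 6 dentate markers summed to 66.1 CPM here and 1039 CPM in dentate granule neurons. The summed level of 10 CA1 markers was 8360 and 8067 CPM in B6 and 7701 and 8144 CPM in D2, against 3218 CPM in Exc-CA1-Fras1 and 2935 CPM in Exc-CA1-Camk2d. The 10 include Galntl6, Fibcd1 and Mpped1, and Galntl6, which names the cluster, made up 4123 CPM of the mean sum of 8068 CPM. The sum is therefore no separate support for the name. Zbtb20, a zinc-finger repressor required for CA1 identity, was at 1513, 1342, 1391 and 1388 CPM, compared with 474 CPM in Exc-CA1-Camk2d and 75.5 CPM in Exc-CA1-Fras1. Pou3f1, a POU-domain factor of CA1, was at 22.4, 23.0, 30.1 and 37.6 CPM and overlapped with Exc-CA1-Fras1 (mean 34.2 CPM) and not with Exc-CA1-Camk2d (1.53 CPM). Wfs1, a marker of dorsal CA1, was low, at 10.9 and 7.49 CPM in B6 and at 4.90 and 4.82 CPM in D2, against 38.7 CPM in Exc-CA1-Camk2d. Calb1, the calcium-binding protein of superficial CA1 cells, was at 43.2 to 62.4 CPM and above all libraries of the other CA1 groups (means 27.5 and 19.0 CPM). Dcn and Nnat, the first a proteoglycan of the matrix and the second an imprinted membrane protein, had their lowest means of the 3 groups here. The summed level of 8 subiculum and entorhinal markers was 157 to 240 CPM here, against 1264 to 1636 CPM in Exc-CA1-Fras1 and 718 to 1196 CPM in Exc-CA1-Camk2d.

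Markers of other cells were present at low levels. The 6 oligodendrocyte markers summed to 150 and 152 CPM in B6 and to 112 and 94.9 CPM in D2, which is 0.758% of their level in oligodendrocytes. The 6 microglial markers summed to 253 and 223 CPM in B6 and 193 and 167 CPM in D2, and the 6 astrocyte markers lay between 135 and 154 CPM in both strains. The 10 inhibitory markers summed to 76.1 and 83.8 CPM in B6 and 54.7 and 49.0 CPM in D2. The oligodendrocyte, microglial and inhibitory sums were lower in both D2 libraries than in both B6 libraries, whereas the astrocyte sums overlapped. Their part in the strain differences below was not tested.

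Transcripts were compared with both other CA1 groups within each library, and a symbol was listed when its log2 ratio, on the log2(CPM + 1) scale, was at least 2-fold in the same direction against both groups in all 4 libraries. No test was run, as the groups were defined on these transcripts. Among 7713 symbols with at least 20 CPM in a CA1 group, 24 (0.311%) were higher and 75 (0.972%) were lower in the Galntl6 group. Without the minimum level, 39 of 24295 symbols (0.161%) were higher and 100 (0.412%) were lower, and with TMM-scaled library sizes the split was 56 higher and 87 lower. The higher symbols thus made up 28.1% of the list under totals and 39.2% under TMM. The last symbol inside the higher list was Sertm1, with a smallest log2 ratio of 1.01, and the first outside was Cacnb2 at 0.979. Of the 24 higher symbols 18 were protein coding, and of the 75 lower symbols 66.

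The 12 leading higher symbols were of varied function, and 3 of them were noncoding RNAs. Thsd7b, a membrane protein with thrombospondin type 1 repeats, was counted at 426, 445, 463 and 481 CPM. It averaged 84.7 CPM in Exc-CA1-Camk2d and 45.9 CPM in Exc-CA1-Fras1, so that no library overlapped, although Exc-Gpc6 neurons held more (646 CPM). Tafa1, a small secreted protein that binds neurexins, was at 2452, 2384, 2375 and 2188 CPM, against 759 and 186 CPM. Iqgap2, a scaffold of the actin cytoskeleton, was at 636 to 685 CPM, against 102 and 250 CPM. Mdga1, which binds neuroligins and limits their access to neurexins, was at 128 to 154 CPM, against 47.8 and 23.9 CPM. Among matrix genes, the fibrillin Fbn1 averaged 57.0 CPM (17.2 and 15.9 CPM in the other groups). The collagen chain Col11a1 averaged 31.6 CPM (6.71 and 2.94 CPM), but CA3 held more, at 194 CPM. Nfkbiz, a nuclear regulator of NF-kB targets, averaged 32.2 CPM against 9.80 and 5.71 CPM.

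Neighbouring genes on chromosome 10 accounted for 3 of the 12 leading symbols. The noncoding RNA Gm10754 (chr10:97681414-97967090, minus strand) was at 391 and 399 CPM in B6 and 340 and 355 CPM in D2. The other groups averaged 72.3 CPM (Exc-CA1-Camk2d) and 112 CPM (Exc-CA1-Fras1). Within its span lies 4930525C09Rik (chr10:97714772-97753702, plus strand), at 107, 119, 76.1 and 77.0 CPM against 15.6 and 32.5 CPM. Epyc (chr10:97644068-97682454, plus strand), a small leucine-rich proteoglycan, meets the end of Gm10754 and was at 51.7, 57.9, 34.6 and 41.2 CPM against 9.80 and 14.4 CPM. The sources used here do not state whether counting used the strand, so reads of these genes cannot be told apart. Another noncoding RNA, 2600014E21Rik, averaged 52.2 CPM against 5.31 and 14.8 CPM.

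The lists of gene families held 4 more of the higher symbols. Galnt17, like Galntl6 a transferase of the O-GalNAc family, was at 726, 741, 785 and 848 CPM against 323 CPM in Exc-CA1-Camk2d and 336 CPM in Exc-CA1-Fras1. These were the only ones of 13 members at 20 CPM that met the rule, and the median log2 ratio of the list was 0.07. Man1a, a Golgi mannosidase that trims N-glycans, averaged 445 CPM against 155 and 198 CPM. Itpr1, the calcium channel of the endoplasmic reticulum opened by inositol trisphosphate, averaged 465 CPM against 125 and 216 CPM. Nfia, a nuclear factor I transcription factor, was at 289 and 290 CPM in B6 and 198 and 204 CPM in D2, against 74.2 and 32.8 CPM. Across all 13 types, 15 of the 24 higher symbols had their highest mean in the Galntl6 group, and 21 of 24 were above CA3.

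**Figure D2:**
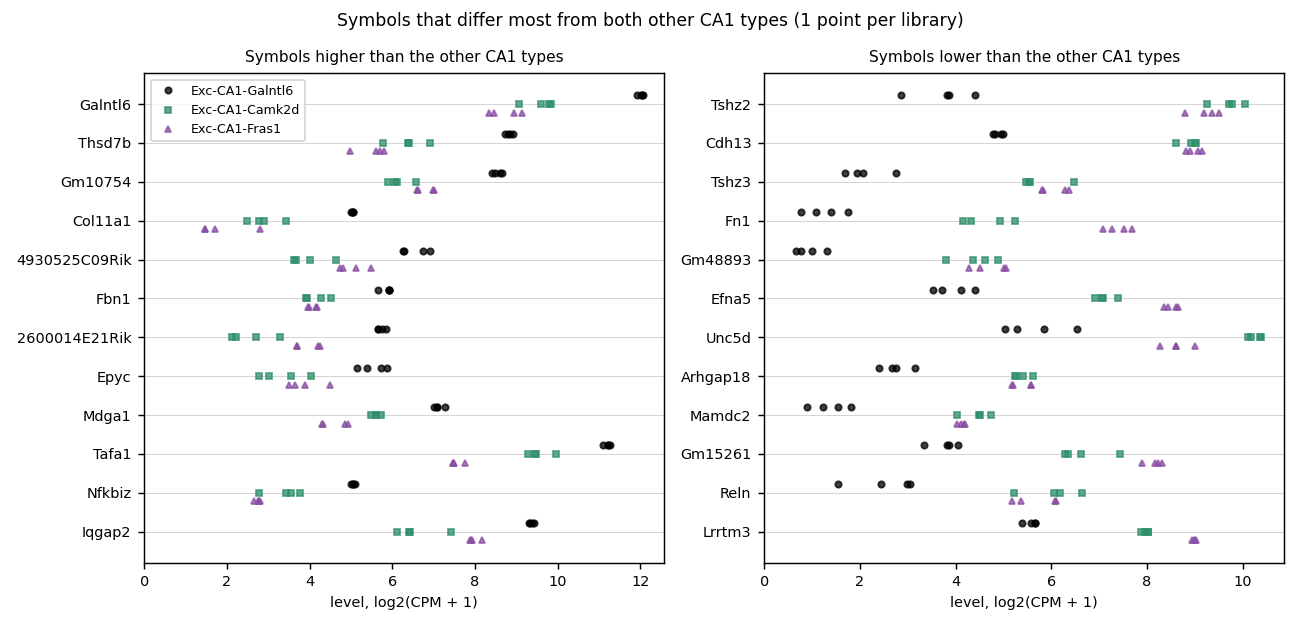
Levels of the 12 leading higher and 12 leading lower symbols in the 3 CA1 groups, on a log2(CPM + 1) axis with 1 point per library. The points of Exc-CA1-Galntl6 lie apart from those of the other groups for each symbol by the rule that chose them, as for Thsd7b (426 to 481 CPM) and Tshz2 (6.24 to 20.3 CPM).

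The 12 leading lower symbols included the related transcription factors Tshz2 and Tshz3. Tshz2, a teashirt zinc-finger factor, was at 20.3 and 13.5 CPM in B6 and 13.2 and 6.24 CPM in D2. The other groups held 844 CPM (Exc-CA1-Camk2d) and 600 CPM (Exc-CA1-Fras1), and Exc-Gpc6 neurons held 2772 CPM. Its relative Tshz3 averaged 3.5 CPM against 55.6 and 67.1 CPM. Satb1, a chromatin organizer further down the list, averaged 8.2 CPM against 73.2 and 52.9 CPM. These were the 3 lower members among 26 excitatory neuron transcription factors at 20 CPM, of which 1, Nfia, was higher. The guidance genes included Efna5, an ephrin ligand, at 12.1, 20.3, 16.3 and 10.5 CPM against 139 and 365 CPM. Unc5d, a netrin receptor, was at 37.9 and 31.7 CPM in B6 and 91.4 and 56.9 CPM in D2, against 1224 and 400 CPM. Cdh13, a cadherin anchored to the membrane by a lipid, stayed between 26.4 and 30.8 CPM against 474 and 507 CPM. Lrrtm3, a postsynaptic leucine-rich repeat protein, averaged 46.6 CPM against 249 and 505 CPM. Fn1, fibronectin, averaged 1.46 CPM, and Exc-CA1-Fras1 held 168 CPM. Reln, the secreted glycoprotein of Cajal-Retzius and other neurons, averaged 5.14 CPM against 67.8 and 52.2 CPM.

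The shares over all 7713 symbols were 0.972% lower and 0.311% higher, and the family lists are given beside them. Of these, 5 of 27 synaptic adhesion genes at 20 CPM were in the lower set (Lrrtm3, Cntn5, Cntn6, Cntnap5a and Cntnap5b) and none in the higher. Cntn6, a contactin, averaged 5.76 CPM against 22.9 CPM in Exc-CA1-Camk2d and 230 CPM in Exc-CA1-Fras1. Of 29 axon guidance genes 4 were lower (Efna5, Sema6d, Unc5d and Ntng2), and of 28 potassium channel genes 1 was lower. This was Dpp10, an auxiliary subunit of Kv4 channels, at 245 and 268 CPM in B6 and 137 and 130 CPM in D2, against 887 and 2686 CPM. Among glutamate receptors Grm8 (69.9 CPM) and the kainate subunit Grik3 (12.8 CPM) were lower than in both other groups. Slc17a6, the vesicular glutamate transporter of subcortical and subicular neurons, averaged 1.36 CPM, while Slc17a7, the transporter of hippocampal pyramidal cells, averaged 396 CPM and was at 356 and 267 CPM in the other groups. The AMPA subunit Gria1 (2667 to 2955 CPM) and the NMDA subunit Grin2a (3578 to 3845 CPM) were above every library of the other CA1 groups, at less than 2-fold in at least 1 comparison. Of the 75 lower symbols, 24 had their lowest mean among excitatory types here.

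By level over 7390 to 7795 symbols, the excitatory types most like the Galntl6 group were Exc-CA1-Camk2d (correlation of log2 CPM within a library 0.895 to 0.916), Exc-CA1-Fras1 (0.888 to 0.904) and CA3 (0.869 to 0.883). The other excitatory types lay between 0.723 and 0.807. Accessibility gave the same order, with 0.770 to 0.819, 0.717 to 0.731 and 0.669 to 0.714. Among the genes whose levels followed that of Galntl6 most closely over 52 columns of 13 types were Brd9 (r = 0.902), Atp2b1 (0.837), Cntnap2 (0.835) and Sh3gl2 (0.833). Brd9, a bromodomain subunit of chromatin remodelling complexes, was highest in the Galntl6 group at 808 CPM, and so were Atp2b1, a plasma membrane calcium pump, at 1467 CPM and Cntnap2, a neurexin-related adhesion protein, at 3141 CPM. Columns of a type share nuclei definitions and columns of a library share its preparation, so no test is given.

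Accessibility was described by the same rule over 64748 peaks with at least 5 CPM in a CA1 group. In the Galntl6 group 394 peaks (0.609%) were higher and 276 (0.426%) were lower than in both other groups in every library. The labels of snATAC-seq nuclei were transferred from the transcripts, so again no test is given. That transfer used accessibility over gene bodies and 2000 bases upstream, the same interval used for the genes of listed symbols below. The direction of peaks in those genes is therefore not independent of the labels. Promoters held 27.8% of the peaks compared, yet 5.33% of the higher and 9.78% of the lower peaks. Intergenic sequence held 30% of all, 56.1% of the higher and 43.8% of the lower peaks. In and just upstream of the genes of the higher symbols lay 256 peaks, of which 4 were higher and none lower, with a median log2 ratio to the other CA1 groups of 0.34, against -0.02 over all peaks. The genes of the lower symbols held 557 peaks, of which 29 were lower and 1 was higher, with a median of -0.43. Tshz2 alone had 8 of those 29 peaks, and the peak at its start was at 3.79, 3.76, 2.66 and 2.67 CPM against 11.9 and 10.8 CPM.

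**Figure D3:**
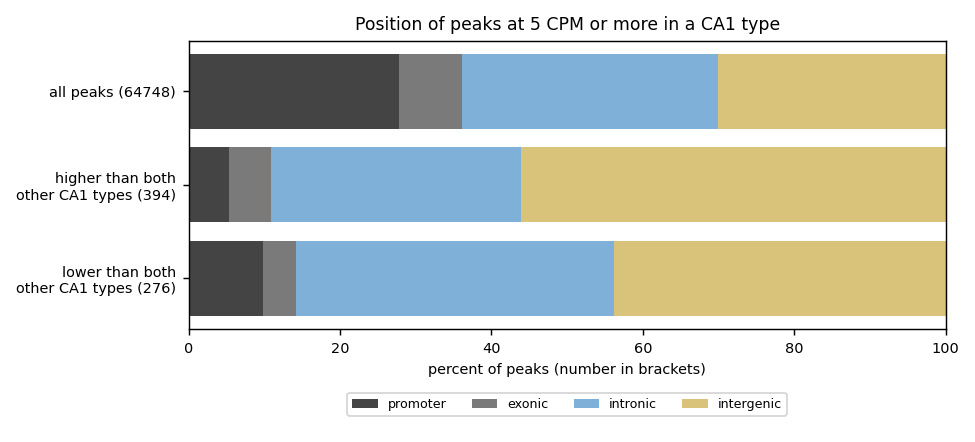
Percent of peaks in promoters, exons, introns and intergenic sequence for all 64748 peaks compared, the 394 higher and the 276 lower in Exc-CA1-Galntl6 than in both other CA1 groups. Promoters held 27.8% of all peaks against 5.33% and 9.78% of the listed ones, and intergenic sequence held 30% against 56.1% and 43.8%.

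The sequences at the centres of peaks in Thsd7b and Fibcd1 are shown since these peaks were above every library of the other CA1 groups. The Thsd7b peak, chr1:130129257-130131462, lies in an intron and was at 13.5, 14.0, 12.7 and 13.7 CPM, against 3.88 CPM in Exc-CA1-Fras1 and 5.21 CPM in Exc-CA1-Camk2d, though Exc-Cdh12 neurons held 13.3 CPM. The Fibcd1 peak, chr2:31844730-31845150, is downstream of the start and was at 6.09, 6.38, 7.98 and 6.28 CPM against 1.81 and 4.01 CPM. Both runs are on the plus strand of GRCm38.p6 in the RefSeq release, at chr1:130130210-130130509 and chr2:31844791-31845090. Capitals mark TGANTCA in the first and CATCTG, the E-box on its other strand, in the second. TGANTCA lets any base stand at N and is looser than the AP-1 site, and the match in the Thsd7b peak is TGAATCA.

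Thsd7b intronic peak centre: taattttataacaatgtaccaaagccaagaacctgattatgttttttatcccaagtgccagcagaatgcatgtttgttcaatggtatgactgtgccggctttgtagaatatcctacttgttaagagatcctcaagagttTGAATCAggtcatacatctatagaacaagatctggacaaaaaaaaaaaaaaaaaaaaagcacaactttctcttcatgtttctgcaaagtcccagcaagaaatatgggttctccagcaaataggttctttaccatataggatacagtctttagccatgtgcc
Fibcd1 peak centre: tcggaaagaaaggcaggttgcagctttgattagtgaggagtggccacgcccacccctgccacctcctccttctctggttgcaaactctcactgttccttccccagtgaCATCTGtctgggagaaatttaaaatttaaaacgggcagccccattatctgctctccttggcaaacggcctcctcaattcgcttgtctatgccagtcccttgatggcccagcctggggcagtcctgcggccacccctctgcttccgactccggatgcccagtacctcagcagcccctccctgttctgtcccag

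Over the central 300 bases, CAGATG or CATCTG occurred in 28.1% of 64743 peaks, in 37.1% of the higher and in 33% of the lower peaks. Outside promoters these shares were 32.7%, 36.2% and 33.3%. TGANTCA occurred in 13.9% of all, 12.7% of the higher and 24.3% of the lower peaks, and outside promoters in 16.7%, 13.1% and 24.9%. The GC box, GGGCGG or CCGCCC, occurred in 17.3% of all, 3.55% of the higher and 6.52% of the lower peaks. Outside promoters these shares were 6.64%, 3.22% and 6.83%. The palindromic site of nuclear factor I occurred in 0.961%, 0.508% and 1.09%. None of these motifs contains another, and a match describes letters only.

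The peaks with the largest such differences lay far from coding starts. The leading higher peak, chr2:146814740-146815416, was at 9.72 and 8.29 CPM in B6 and 6.19 and 8.21 CPM in D2, against 0.437 CPM in Exc-CA1-Fras1 and 0.677 CPM in Exc-CA1-Camk2d, and the nearest coding start was that of Kiz. An intronic peak of Prkg1, the cGMP-dependent protein kinase, chr19:30698924-30699612, was at 5.65 to 7.23 CPM against 0.496 and 0.641 CPM. On the lower side, chr3:60291467-60292723 was at 0.954 to 1.68 CPM against 18.5 and 10.6 CPM, and chr6:5332102-5333237 was at 0.239 to 0.878 CPM against 9.64 and 10.8 CPM. Outside CA1, the highest level of each of the 5 leading higher peaks was that of CA3, from 0.413 to 4.70 CPM, and that of each of the 5 leading lower peaks was that of Exc-Cdh12 or Exc-Gpc6 neurons, from 0.320 to 46.6 CPM.

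The strain comparison within the Galntl6 group asked which transcripts differ between D2 and B6 in these neurons. edgeR's quasi-likelihood test with Benjamini-Hochberg adjustment called 3947 of 15207 symbols (26%), of which 1770 (11.6%) were higher and 2177 (14.3%) lower in D2. The median absolute log2 fold change of the called symbols was 0.61, and 459 higher and 661 lower symbols differed at least 2-fold. Both D2 libraries lay on 1 side of both B6 libraries for 3934 of the 3947, beside 63.4% of all symbols tested. DESeq2 called 1803 symbols, and leaving out D2 library 3 left 2529. Of the symbols at least 2-fold lower, 42.7% overlapped another gene on their strand, against 16.9% of those at least 2-fold higher and 24% of all tested. D2 reads were counted on an SNP-swapped genome, and 8169 symbols had counts in D2 alone, so counting and strain cannot be told apart for single symbols.

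The largest strain differences were found for symbols of varied function. Of the 10 leading symbols per direction, Sv2c alone was called in the comparison with the other CA1 groups given below. The others were thus not shown to be particular to this group. Rnf121, a RING-finger ubiquitin ligase, was at 36.7 and 41.3 CPM in B6 and 824 and 744 CPM in D2 (log2 fold change 4.26 ± 0.08 SE, edgeR adjusted p = 1.64e-18). Atp5o, a subunit of the ATP synthase, was at 17.6 and 24.8 CPM in B6 and 386 and 373 CPM in D2. Dnah6, an axonemal dynein heavy chain, was at 1.49 and 3.68 CPM in B6 and 89.0 and 78.8 CPM in D2. Each of them had a wide gap between the strains. Sv2c, a synaptic vesicle glycoprotein, was at 1.98 and 3 CPM in B6 and 59.3 and 51.7 CPM in D2 (log2 fold change 4.42). Adat2, a tRNA adenosine deaminase subunit, was at 2.11 and 3 CPM in B6 and at 21.1 and 24.8 CPM in D2. The noncoding Gm20324 led the list at 2.73 and 1.5 CPM in B6 and 78.5 and 69.4 CPM in D2 (5.03). The remaining 4 of the 10 leading higher symbols, 4930568G15Rik, Gm38394, Dnajc5b and 1700057H15Rik, had log2 fold changes from 3.44 to 3.89.

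The lower end was led by mitochondrial transcripts. The cytochrome oxidase subunit mt-Co3 was at 394 and 465 CPM in B6 and 2.52 and 1.61 CPM in D2, and mt-Atp6, an ATP synthase subunit, was at 397 and 454 CPM in B6 and 5.79 and 4.82 CPM in D2. Copies of the mitochondrial genome in the nuclear genome can make such counts uncertain, and their part in this difference was not tested. Cox16, an assembly factor of cytochrome oxidase, was at 166 and 182 CPM in B6 and 5.49 and 6.60 CPM in D2. Arhgap26, a GTPase-activating protein, fell from 221 and 223 CPM to 5.93 and 3.92 CPM. Galnt2, a transferase of the Galntl6 family, was at 34.2 and 33.5 CPM in B6 and 1.19 and 1.25 CPM in D2 (log2 fold change -4.85). The other 5 leading lower symbols, Rhbdl1, Glcci1, Hdhd2, Gm47448 and Umad1, had log2 fold changes from -4.94 to -4.08. Accessibility at the starts of these genes differed far less. The start peak of Rnf121 was at 27 and 26.3 CPM in B6 and 29.3 and 24.1 CPM in D2, and that of Galnt2 at 23.4, 23.6, 23.0 and 24.4 CPM. The start peak of Dnah6 rose by 0.53 on the log2 scale (edgeR adjusted p = 2.2e-07), that of Gm38394 by 0.37 (adjusted p = 0.00425) and that of Umad1 by 0.23 (adjusted p = 0.0397).

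The families of genes that set the electrical and synaptic properties of pyramidal cells were then read against the shares of 11.6% and 14.3%. These shares cover all 15207 symbols tested, at any level. Several lists held mostly genes at 20 CPM or more in a CA1 group, such as 28 of 29 potassium channel genes. For calcium and cyclic nucleotide signalling it was 26 of 28. The part of level in the shares called was not tested. Among 29 potassium channel genes 3 rose and 15 fell in D2 (median log2 fold change -0.18, against 0.01 over all symbols), and DESeq2 called 13. Kcnip3, a calcium-binding subunit of Kv4 channels, was at 81.9 and 85.3 CPM in B6 and 24.5 and 26.8 CPM in D2 (log2 fold change -1.78, SE 0.11, edgeR adjusted p = 1.25e-10). The strains did not overlap, and Kcnip4, of the same family, fell from 5725 and 5990 CPM to 3922 and 4155 CPM. Kcnh7, an ether-a-go-go related channel, fell from 775 and 818 CPM to 501 and 540 CPM. Against this direction, Kcnj9, a G-protein-gated inward rectifier, rose from 28.2 and 27.7 CPM to 53.1 and 53.1 CPM (log2 fold change 0.86). Of 15 calcium channel genes 4 fell and none rose (1 was higher in D2 at unadjusted p under 0.05), with Cacna1a, the P/Q-type channel, at 647 and 631 CPM in B6 and 430 and 432 CPM in D2. Of 10 sodium channel genes and partners 1 rose and 3 fell.

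Genes of calcium and cyclic nucleotide signalling had the largest share of lower calls among the lists of gene function (cell type markers aside), with 18 of 28 lower and 2 higher in D2 (median -0.24), and DESeq2 called 15. Camk2a, the main calmodulin-dependent kinase of the synapse, was at 1117 and 1141 CPM in B6 and 1008 and 966 CPM in D2 (log2 fold change -0.26). Prkcb, a protein kinase C, fell from 716 and 744 CPM to 570 and 590 CPM, and Pde10a, a phosphodiesterase, from 901 and 947 CPM to 787 and 728 CPM. The differences were small in size and did not overlap between strains. Camk2g and Nrgn, a calmodulin-binding postsynaptic protein, were the symbols that rose. Of 29 synaptic adhesion genes 15 fell and 4 rose (median -0.18). Cntnap2 was at 4048 and 4040 CPM in B6 and 2196 and 2281 CPM in D2 (log2 fold change -0.92, SE 0.04, edgeR adjusted p = 1.12e-12), and 24 other genes on its strand overlap it. Nrxn3, a presynaptic neurexin, fell by 0.44 on the log2 scale. Of 35 axon guidance genes 14 fell and 3 rose (median -0.16), among them Dcc, a netrin receptor (1267 and 1246 CPM to 981 and 992 CPM), and Robo2, a receptor for Slit proteins (-0.32). Of 19 cadherins 9 fell and 4 rose.

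Of 14 AMPA receptor genes and partners 3 fell, with Gria1 lower by 0.18 on the log2 scale, and of 5 NMDA receptor genes Grin2a fell and Grin3a rose (112 and 126 CPM to 186 and 231 CPM). The call on Grin2a was lost with DESeq2 (adjusted p = 0.0943). Of 12 GABA-A receptor genes 1 rose and 2 fell, with Gabra5, the extrasynaptic subunit of hippocampal neurons, going from 130 and 140 CPM to 92.9 and 88.8 CPM. Among 22 neuromodulator receptors 2 rose and 4 fell. Chrm3, a muscarinic receptor, fell by 0.66 and Oprm1, the mu opioid receptor, by 1.08 on the log2 scale, whereas Cnr1, the cannabinoid receptor, rose from 58.7 and 62.0 CPM to 88.4 and 92.9 CPM. Fkbp5, a chaperone induced by glucocorticoids, was the sole call of 5 corticosteroid genes, at 90.2 and 76.8 CPM in B6 and 55.8 and 51.4 CPM in D2, while the glucocorticoid receptor Nr3c1 had a log2 fold change of -0.05. None of 8 activity-induced genes and none of 7 neuropeptides tested was called by edgeR or DESeq2, and at unadjusted p under 0.05 edgeR gave 3 and 1. Of 16 O-GalNAc transferase genes 4 rose and 7 fell (median -0.10), and of 14 heparan sulfate modifying enzymes 2 rose and 3 fell. Of 30 transcription factors of excitatory neurons 4 rose and 5 fell. Neurod6, a basic helix-loop-helix factor, rose from 70.2 and 60.8 CPM to 116 and 124 CPM and Foxp1, a forkhead factor, fell from 538 and 564 CPM to 354 and 352 CPM.

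**Figure D4:**
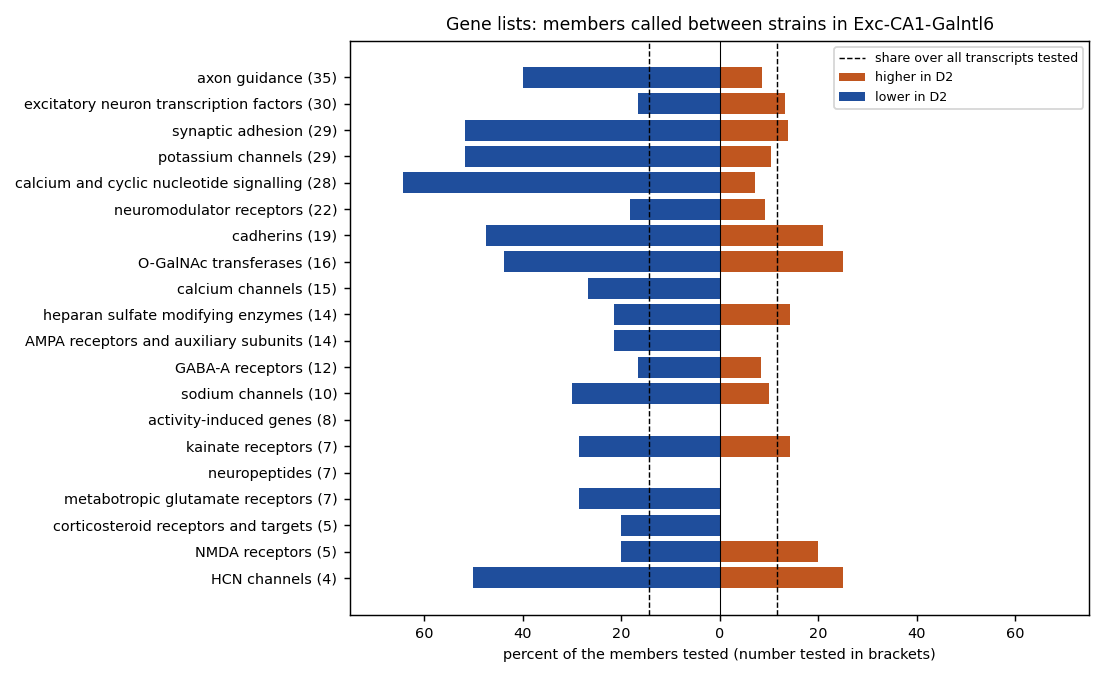
Percent of the tested members of each gene list that edgeR called higher (to the right) or lower (to the left) in D2 within Exc-CA1-Galntl6. Dashed lines mark the shares over all symbols, 11.6% higher and 14.3% lower, and in the list of calcium and cyclic nucleotide signalling 18 of 28 were lower.

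The symbols that set the Galntl6 group apart were themselves compared between strains. None of the 24 higher symbols rose and 13 fell in D2 by edgeR, against 11.6% and 14.3% of all symbols, with a median log2 fold change of -0.17. At unadjusted p under 0.05, 1 was higher and 13 were lower. The 24 symbols were chosen at 20 CPM or more, whereas the shares cover tested symbols of any level. No share at 20 CPM was taken, so level was not matched. The neighbouring Gm10754, 4930525C09Rik and Epyc each count among the 24. Galntl6 itself had a log2 fold change of -0.12 (edgeR adjusted p = 0.039), a call lost with DESeq2 (adjusted p = 0.198), without B6 library 2 and without D2 library 2. Nfia had a value of -0.60 and 4930525C09Rik of -0.63, both called by DESeq2 too. Of the 73 lower symbols tested, 11 rose and 18 fell, with a median of -0.10. Unc5d was among those that rose (log2 fold change 1.03, edgeR adjusted p = 6.78e-05), a call that DESeq2 did not make (adjusted p = 0.057). Among glial markers tested, edgeR called 4 of 6 oligodendrocyte, 2 of 3 oligodendrocyte precursor and 2 of 5 microglial genes lower in D2. The share over all symbols was 14.3%. None of these markers was called higher, and none of 5 astrocyte markers was called. Mobp, a myelin protein, fell from 13.8 and 10.6 CPM to 4.90 and 3.39 CPM.

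Whether the strains differed otherwise in the Galntl6 group than in the other CA1 groups was tested by the difference between the log2 fold change (D2 minus B6) here and the mean of those in Exc-CA1-Fras1 and Exc-CA1-Camk2d, with each library as a block. edgeR called 47 of 14986 symbols (0.314%), 27 (0.18%) with a higher and 20 (0.133%) with a lower value here, and 1060 passed at unadjusted p under 0.05. DESeq2 called 18, of which 17 were shared. Leaving out D2 library 2 left 4 symbols and leaving out D2 library 3 left 7, while leaving out B6 library 2 or 3 gave 114 and 206. All 47 kept their sign in each of these fits. Tmod3, Pcsk5 and Fstl4 were called in all 4 of them.

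Fstl4, a secreted follistatin-related protein, had the smallest adjusted p. In the Galntl6 group it was at 105 and 113 CPM in B6 and 44.8 and 36.9 CPM in D2. It went the other way in the neighbouring groups, from 225 and 323 CPM to 332 and 294 CPM in Exc-CA1-Camk2d, where the strains overlapped, and from 14.9 and 13.3 CPM to 23.1 and 21.8 CPM in Exc-CA1-Fras1. The difference was -1.82 (SE 0.15, edgeR adjusted p = 8.7e-06). Tmod3, tropomodulin 3, which caps actin filaments, was at 36.2 and 34.5 CPM in B6 and 94.5 and 96.8 CPM in D2. It was at 30.5 to 45.6 CPM in all 8 libraries of the other groups, a difference of 1.16 (SE 0.13, edgeR adjusted p = 0.000191). The D2 libraries of the Galntl6 group thus stood above all other CA1 libraries. Pcsk5, a proprotein convertase, rose from 31.3 and 27.7 CPM to 45.3 and 44.4 CPM here, and was lower in D2 in both other groups, with 162 and 144 against 108 and 93.6 CPM in Exc-CA1-Camk2d (difference 1.02, SE 0.12).

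Rxfp1, the relaxin receptor, had the largest difference among the symbols named by the rule, at 1.99 (SE 0.26, edgeR adjusted p = 0.000741). It was at 11 and 11 CPM in B6 and 45.1 and 40.3 CPM in D2 in the Galntl6 group, at 58.6 to 70.5 CPM in Exc-CA1-Fras1 and at 2.53 to 4.55 CPM in Exc-CA1-Camk2d. The strains overlapped in Exc-CA1-Camk2d, and in Exc-CA1-Fras1 the highest B6 value (64.5 CPM) almost met the lowest D2 value (64.6 CPM). Vat1l went from 7.19 and 6.68 CPM to 26.7 and 22.3 CPM here, and was at 78.2 and 81.1 CPM in B6 and 65.7 and 65.9 CPM in D2 in Exc-CA1-Fras1 (difference 1.60). Cdh20, a type II cadherin, went from 42.7 and 41.0 CPM to 12.3 and 12.7 CPM (-1.36). Sgcz, a sarcoglycan, fell from 100 and 103 CPM to 63.6 and 47.1 CPM, while the D2 libraries of Exc-CA1-Camk2d were above the B6 libraries (-0.97). Within the family lists, read against 0.314% of all symbols, the calls were Kcnip3 (-0.77) and Dpp10 (-0.83) of 29 potassium channel genes, Cdh6 and Cdh20 of 19 cadherins, and Cntn4 (0.61), Cntnap2 (-0.43) and Cntnap5a (-0.73) of 29 synaptic adhesion genes. Sox5, a transcription factor of deep projection neurons, was called at 0.64, with 313 and 333 CPM in B6 and 602 and 641 CPM in D2. Galnt14 was called among the O-GalNAc transferases (0.57). DESeq2 did not call Cdh6, Cntn4, Cntnap2, Cntnap5a or Galnt14.

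**Figure D5:**
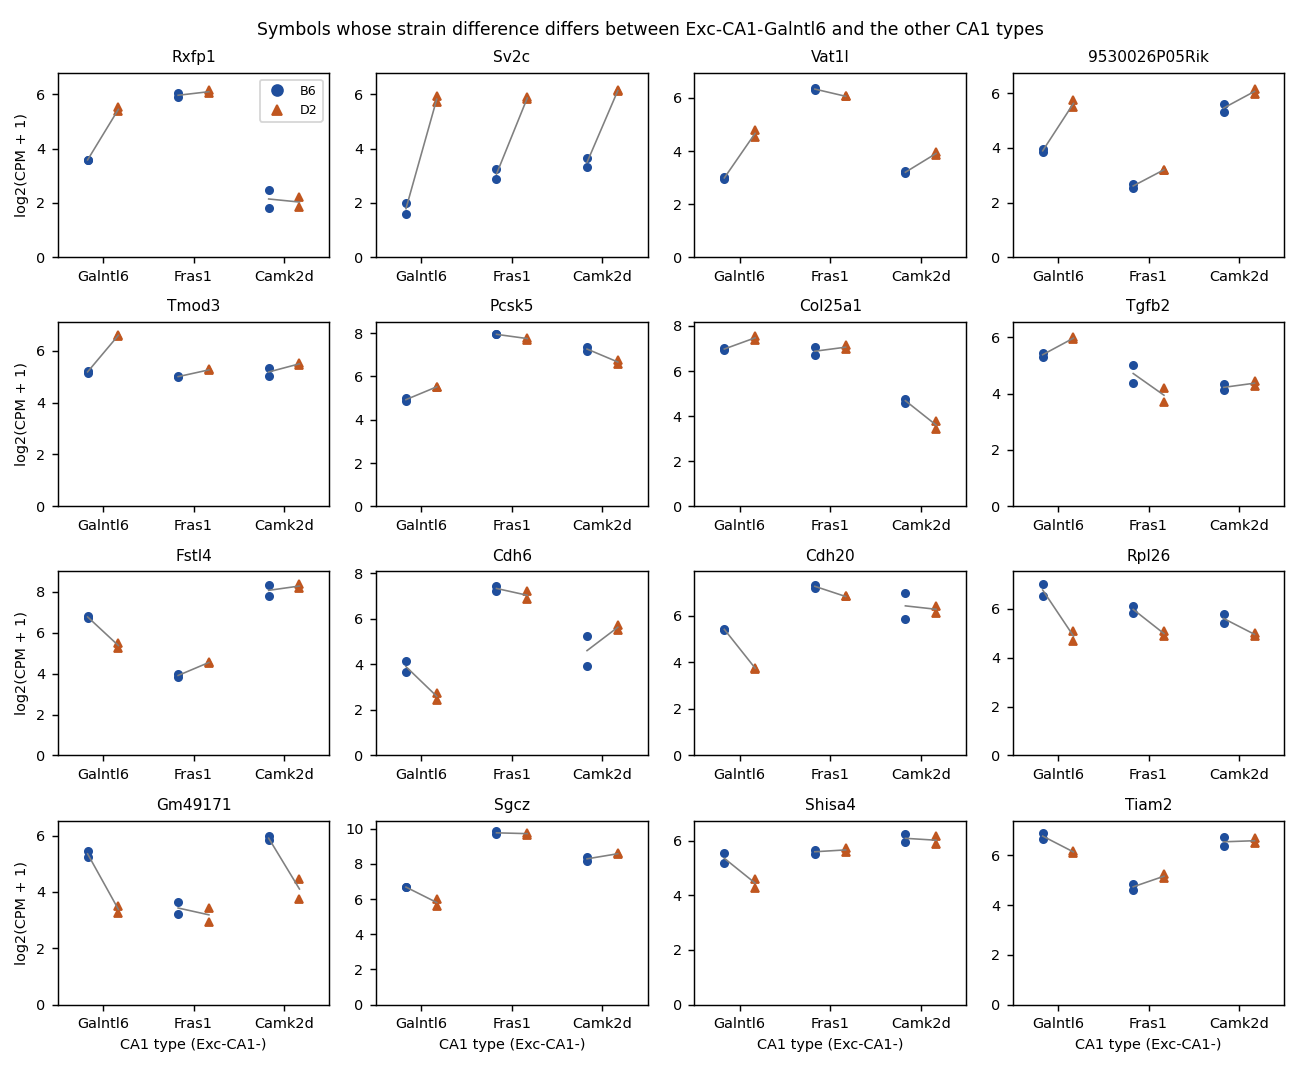
Levels of the 16 symbols named for a strain difference in Exc-CA1-Galntl6 that differed from that in the other CA1 groups, on a log2(CPM + 1) axis, with 1 point per B6 or D2 library in each group and lines joining the strain means. Tmod3 is at 94.5 and 96.8 CPM in D2 in the Galntl6 group and at 30.5 to 45.6 CPM in the other groups.

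Accessibility of the Galntl6 group differed between strains at 15713 of 298640 peaks tested (5.26%), with 7535 (2.52%) higher and 8178 (2.74%) lower in D2 by edgeR. DESeq2 called 4020 of them, and leaving out B6 library 2 or 3 left 9413 and 10032. The leading higher peak, chr2:129137538-129137759, was intergenic, with Chchd5 the nearest coding start, and was at 0.22 and 0.537 CPM in B6 and 15.8 and 15.9 CPM in D2 (log2 fold change 5.42). The other 4 of the 5 leading higher peaks lay in Sfi1, a centrosomal gene on chromosome 11, at log2 fold changes from 4.93 to 5.38. That at chr11:3157710-3158730 was at 4.17 and 3.88 CPM in B6 and 169 and 155 CPM in D2, and at 3.02 to 4.73 CPM in B6 and 107 to 151 CPM in D2 over the other CA1 groups. The leading lower peak, chr17:33980589-33981766 near the histocompatibility gene H2-K1, was at 26.6 and 25.6 CPM in B6 and 0.347 and 0.593 CPM in D2 (log2 fold change -5.72). D2 reads were mapped on an SNP-swapped genome here too. Mapping, differences of the genomes and accessibility therefore cannot be told apart for single peaks. Of the called peaks, 16.5% of the higher and 10.7% of the lower lay in promoters, against 12.4% of all tested. Of the 394 peaks that were higher than in the other CA1 groups, 14 rose and 24 fell in D2, against 5.12% and 3.1% of peaks at 5 CPM.

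A start peak was set beside the transcript for 13941 genes. It was the tested peak with the highest mean CPM in the Galntl6 group among those within 1000 bases of any annotated start. Where the transcript was higher in D2 (1648 genes), the start peak rose in 154 (9.34%) and fell in 11 (0.667%). Where it was lower (1905 genes), the start peak rose in 61 (3.2%) and fell in 78 (4.09%). Where the transcript was not called (10388 genes), the shares were 3.48% and 0.712%, and over all genes they were 4.13% and 1.17%. Most called transcripts therefore had a start peak that was not called. Among the symbols whose strain difference departed from that of the other CA1 groups, the start peak of 9530026P05Rik, a noncoding RNA, was at 7.63 and 7.63 CPM in B6 and 16.4 and 19.1 CPM in D2 (log2 fold change 1.25, edgeR adjusted p = 1.39e-23). The start peaks of Vat1l (0.67, adjusted p = 2.71e-06) and Pcsk5 (0.46, adjusted p = 0.000194) rose as well. That of Fstl4 was at 14.4 and 15.4 CPM in B6 and 11.5 and 12 CPM in D2, which did not pass (log2 fold change -0.31, edgeR adjusted p = 0.082), and that of Tmod3 had a log2 fold change of 0.11.

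The strain difference in accessibility departed from that of the other CA1 groups at 153 of 300753 peaks (0.0509%), 66 (0.0219%) upward and 87 (0.0289%) downward, with 18579 at unadjusted p under 0.05. Only 1 was called by DESeq2, and with a library left out the number was 83 (B6 library 2), 34 (B6 library 3), 35 (D2 library 2) and 23 (D2 library 3). That peak, chr5:110057081-110058454 in an intron of Gm17655, was at 6.64 and 7.22 CPM in B6 and 16.7 and 18.1 CPM in D2. It was higher in D2 in the other CA1 groups too, but from a lower B6 level, 0.687 to 2.25 CPM, to 12.9 to 17 CPM (difference -2.07, SE 0.25, edgeR adjusted p = 1.38e-11). A peak at chr6:129145473-129147428, for which Clec2d was the nearest coding start, was at 3.4 and 3.28 CPM in B6 and 8.56 and 9.40 CPM in D2. In the other CA1 groups the strains overlapped or lay in the opposite order, as in Exc-CA1-Camk2d with 9.63 and 9.95 CPM in B6 and 7.48 and 9.37 CPM in D2 (difference 1.63, SE 0.30). A peak in the promoter shared by Abcg5 and Abcg8, sterol transporters, chr17:84674633-84676335, rose from 1.70 and 2.33 CPM to 15.4 and 14.1 CPM. In the other groups it was at 2.47 to 6.10 CPM in B6 and 7.15 to 12.3 CPM in D2 (difference 1.46, SE 0.27). Within the genes whose transcripts were called by the same comparison, a peak was called in Pcsk5 (2.43), in Cntnap5a (-1.98) and in Tmc7 (-0.88).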

How the data were processed

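The values are counts that the authors deposited per cell type and library. Cell Ranger 6.0.2, with introns kept, and Cell Ranger ATAC 2.0.0 were the mappers they used, on the mm10 genome for B6 libraries and on mm10 carrying D2 SNPs for D2 libraries. Doublets were removed by DoubletFinder and nuclei clustered in Seurat 4.0.5. MACS peaks of each sample were merged, and raw counts were summed per cell type. Whether counting used strand is not given in the sources used here. The deposited library numbers, 2 and 3, differ from the labels' 1 and 2, so columns were placed by strain only. The 44 columns of other types were not used, nor were the 16 methylation samples. Replicates are pools of animals, and p-values of the strain fits measure the spread between these pools. Where each library was a block, p-values rest on the spread left within libraries. In either case the estimates of spread draw on all features.

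Library totals were taken over all counts, and CPM over symbols counted in both strains. Strain fits used edgeR 4.0.16 (R 4.3.3; TMM, quasi-likelihood test, Benjamini-Hochberg adjustment, threshold 0.05), after filterByExpr for transcripts and a minimum of 10 counts for peaks. The difference of strain differences was fitted on the 12 CA1 columns with a library block. DESeq2 1.42.0, RLE scaling, other filters, the block, each library left out, other pseudocounts and folds were alternatives. Steps were tested on simulated data. Python 3.11.15 drove the rest.

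The members and lists were chosen with earlier results of these data known. Named besides list members were the 12 symbols per direction farthest from both other CA1 types at 20 CPM, the 10 per direction with the largest strain difference and the 8 with the largest difference between types (adjusted p under 0.05, at least 10 counts per strain and 20 CPM), 5 peaks per direction by the same rules at 5 CPM, and the 5 genes most like Galntl6. Some genes that meet these rules are not reported here. Gene positions are those of mm10, and sequences and promoters come from RefSeq GRCm38.p6.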

Additional observations from a re-analysis of the deposited data

Results flagged for a closer look

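The results below were selected because the strain difference in the Galntl6 group departed from that in the other CA1 groups by the test of that difference (edgeR, adjusted p under 0.05). This held for 47 transcripts and 153 peaks. Each value that follows is the log2 fold change (D2 minus B6) in the Galntl6 group minus the mean of those in Exc-CA1-Fras1 and Exc-CA1-Camk2d.

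Among transcripts the value was 1.99 for Rxfp1, 1.66 for the synaptic vesicle gene Sv2c, 1.60 for Vat1l and 1.17 for the noncoding 9530026P05Rik. It was 1.16 for Tmod3, 1.02 for Pcsk5, 0.98 for the membrane collagen Col25a1 and 0.93 for the growth factor Tgfb2. On the other side it was -1.82 for Fstl4, -1.72 for the cadherin Cdh6, -1.36 for Cdh20 and -1.04 for the ribosomal gene Rpl26, whose processed copies make its counts uncertain. It was -0.98 for Gm49171, -0.97 for Sgcz, -0.92 for Shisa4 and -0.87 for Tiam2, an activator of Rac. DESeq2 did not call 9530026P05Rik, Tgfb2 (adjusted p = 0.765), Cdh6, Gm49171, Shisa4 or Tiam2. Without the library block Tgfb2, Cdh6, Cdh20 and Gm49171 were not called. Against Exc-CA1-Camk2d alone Rxfp1, Vat1l, Tgfb2, Cdh20, Gm49171 and Tiam2 were not called, and against Exc-CA1-Fras1 alone Col25a1 was not. Each of these symbols other than Tmod3, Pcsk5 and Fstl4 lost its call when 1 or the other D2 library was left out. Sv2c was higher in D2 in all 3 CA1 groups, and its B6 level was lowest in the Galntl6 group, at 1.98 and 3 CPM. Tgfb2 was at 38.4 and 42.9 CPM in B6 and 59.6 and 63.5 CPM in D2 here, and at 20 and 31.7 against 17.3 and 11.9 CPM in Exc-CA1-Fras1. Col25a1 was at 127 and 123 CPM in B6 and 167 and 187 CPM in D2 here, and at 26.5 and 23.1 against 12.6 and 9.85 CPM in Exc-CA1-Camk2d.

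Of the 10 peaks that follow, DESeq2 called that at chr5:110057081-110058454 and no other. Among peaks, the value was 1.77 at chr1:166641273-166642156, 1.63 at chr6:129145473-129147428 and 1.52 at chr10:105191648-105192659 in an intron of Tmtc2. It was 1.46 at chr17:84674633-84676335 and 1.42 at chr2:126281774-126283430. It was -2.07 at chr5:110057081-110058454, -1.81 at chr14:48481524-48482691 in Tmem260 and -1.78 at chr8:115260610-115262375 in an intron of Wwox. It was -1.33 at chr6:86955064-86956527 in Aak1 and -1.31 at chr14:56172825-56174084 near Gzmn. At chr10:105191648-105192659 the peak was at 1.21 and 1.91 CPM in B6 and 9.25 and 11 CPM in D2, and Exc-CA1-Fras1 had 6.60 and 3.16 against 12 and 12.7 CPM. The lower Tmem260 peak was at 7.52 and 7.57 CPM in B6 and 0.983 and 0.742 CPM in D2.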

How the results depend on the processing

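Transcripts called between strains (3947) numbered 1803 with DESeq2 and 2529 to 3886 with a library left out. Symbols counted in 1 strain brought 5893 calls, of which 59.6% were higher in D2 against 44.8%. Peaks called between strains (15713) numbered 4020 with DESeq2 and 9413 to 10903 with a library left out. For the difference between CA1 groups, transcripts (47) numbered 28 with no replicate block, 150 with no filter beyond 1 count, 244 against Exc-CA1-Fras1 alone, 18 with DESeq2 and 4 to 206 with a library left out, and peaks (153) numbered 1 with DESeq2 and 23 to 83 with a library left out. Where 1 library of a strain remained it was assumed to vary like the others. The 139 symbols of the description became 232 and 78 at pseudocounts of 0.1 and 5 CPM, 396 at 1.5-fold, 23 at 4-fold and 161 to 197 with a library left out. The 670 peaks became 1280 and 17, 2942 and 4, and 756 to 1030 (highest without B6 library 2). The cause was not tested, beyond fewer samples or symbols entering. No call among the named features changed sign. The smallest exact permutation p of 0.33 limits shares of nuclei.

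With the library number as a replicate block, 4152 transcripts and 16126 peaks were called between strains. Deviations of same-numbered libraries correlated at -0.056 (transcripts) and 0.037 (peaks). With 2 libraries per strain these values cannot show whether same-numbered libraries shared a preparation, which the labels do not give.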

Other observations

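Adamts9, Adamts17 and Adamts18, metalloproteases of the extracellular matrix, were 3 of the 47 transcripts whose strain difference departed from that of the other CA1 groups. They and the genes below were named after their values were seen, and no test of the family was run. Adamts9 was at 5.82 and 4.22 CPM in B6 and 43.5 and 37.3 CPM in D2 in the Galntl6 group. In Exc-CA1-Camk2d it was at 20.1 and 7.88 CPM in B6 and 14.1 and 15.1 CPM in D2, where the strains overlapped (difference 2.13, SE 0.39, edgeR adjusted p = 0.0154). Adamts18 was at 6.32 and 5.59 CPM in B6 and 20 and 29.8 CPM in D2 (difference 1.65, adjusted p = 0.015), a call that DESeq2 did not make. Adamts17 had a difference of 0.61 (adjusted p = 0.0482), also without a call by DESeq2. The noncoding 9530026P05Rik starts next to Adamts9 on chromosome 6, at chr6:92940329-93272979, while Adamts9 ends at 92943492, so their starts overlap. Whether reads there were kept apart by strand is not known here.

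Among the 20 downward departures were 3 channel genes with low levels. Kcnmb2, a beta subunit of BK potassium channels, was at 3.59 and 6.13 CPM in B6 and 2.08 and 1.25 CPM in D2. The other groups moved the opposite way, from 6.44 and 8.44 CPM to 18.2 and 17.5 CPM in Exc-CA1-Camk2d (difference -2.57, SE 0.35, edgeR adjusted p = 0.00116). Glra2, a glycine receptor subunit, was at 2.85 and 3.81 CPM in B6 and 0.890 and 1.07 CPM in D2 (difference -2.53), and Trpc7, a cation channel, at 19.1 and 21.1 CPM in B6 and 9.79 and 11.4 CPM in D2 (difference -1.45). DESeq2 called Kcnmb2 (adjusted p = 0.00997) and neither of the other two. Sox5os4, annotated within Sox5, had a difference of 0.86, next to 0.64 for Sox5. Whether reads of these overlapping genes were kept apart is not known here.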
